A study of Mus musculus with 22 samples.

Results

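Fibroblasts sorted from mouse back skin 1 day after a tissue expander was placed under it were compared with fibroblasts from mice that had the same operation without an expander. The day 1 comparison used 9 of the 22 libraries of the series, 5 from skin with an expander (EXP) and 4 from the operated control (CTRL). Of the 55414 genes in the count table, 17554 had enough counts to be tested, and these are the genes described here. Every mouse had an incision near the tail and a path opened under the skin to the neck. In EXP mice an expander hydrogel, a gel that swells and stretches the skin above it, was stitched in place near the neck, and in both groups the incision was closed. The labels give skin as the tissue and fibroblasts as the cell type, and strain, age and sex are not given in the sources used here. Skin was digested to single cells, cells with CD31, CD45, CD117 or EpCAM on their surface were left out, and live CD34+ PDGFRα+ cells were kept for bulk RNA sequencing. The CTRL mice share the operation with the EXP mice, so stretch and the mere presence of an implanted gel cannot be told apart in this contrast. The remaining 13 libraries are the same 2 groups at day 2 (3 CTRL, 3 EXP) and day 4 (4 CTRL, 3 EXP).

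Dermal fibroblasts make the collagen and elastic matrix of the skin, and they also signal to immune cells, vessels and epidermis. Tension stretches the matrix to which they are attached, while injury exposes them to inflammatory cytokines. Fibroblasts respond to injury by secreting chemokines that attract neutrophils and monocytes, by cutting and rebuilding matrix, and by entering the cell cycle after a lag in which ribosomes and lipids for new cells are made. Collagen chains are hydroxylated, folded and sorted in the endoplasmic reticulum before export, so the secretory load of a fibroblast and its collagen output are tied together.

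The day 1 libraries held between 23872965 and 27322561 counts in genes. Replicates of a group correlated at 0.947 to 0.972 on the log2 scale and differed well beyond counting noise, so none was treated as a duplicate. The labels do not say that each library came from a separate animal. The p-values measure the spread between libraries within the 6 groups of day and treatment, over all 22 libraries of the series. That spread may be in part technical. The first principal component of the 9 libraries took 41% of the variance and separated the groups, with CTRL between -72.8 and -60.9 and EXP between 40 and 72.3. Mitochondrially encoded transcripts took 0.818% to 0.925% of the counts in CTRL and 1.09% to 1.83% in EXP, and their part in the results below was not tested. Fibroblast markers were abundant in both groups: summed over 14 genes such as Col1a1, Dcn and Pdgfra, a sum that the collagens dominate, they reached 220000 to 266000 CPM (counts scaled to a fixed library total) in CTRL and 118000 to 175000 CPM in EXP, and 7 of the 14 were called lower (4 without CTRL 1, CTRL 4, EXP 1 or EXP 3) and 1 higher. The libraries were also split by 192 genes whose deviations from their group means correlated above 0.9 with those of Rnf10. That choice makes the split one within groups by construction. Cut at the largest gap in their mean level over all libraries of the series, CTRL 1, CTRL 2, CTRL 3, EXP 1 and EXP 2 were on one side. CTRL 4, EXP 3, EXP 4 and EXP 5 were on the other.

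Levels below are CPM after TMM scaling, a correction for libraries dominated by a few abundant transcripts. They are given in the order of the libraries, 1 to 4 for CTRL and 1 to 5 for EXP. CPM summed over a list and CPM of genes not tested are the exception, scaled by library totals without TMM. No level is divided by gene length, so levels are compared only within a gene. Fold changes are log2 values of EXP over CTRL with their standard error, and a gene is called when its adjusted p from edgeR's quasi-likelihood test over all 17554 genes is under 0.05. By that rule 5017 genes (28.6%) differed between EXP and CTRL at day 1, 2441 higher (13.9%) and 2576 lower (14.7%). Of these, 2504 genes also had an absolute log2 fold change of at least 1, with 992 higher and 1512 lower. The median log2 fold change over all genes tested was 0.02. The collagen genes Col1a1, Col1a2 and Col3a1 together took 19.8% to 24.5% of CTRL counts and 9.97% to 15.8% of EXP counts, and scaling by library totals in place of TMM moved that median to 0.21 and the higher share of the calls from 48.7% to 66.2%. No called gene changed sign under the 3 scalings tried. With the libraries of the first side of that split alone (3 CTRL, 2 EXP), 2403 genes passed. Several genes described here share exonic bases with a neighbour in GENCODE M21, among them Lrrc17 with Fbxl13, Psmb9 with Tap1, Ccna2 with Exosc9, Rrp9 with Parp3, Timp3 with Syn3 and Fn1 with Apol7d, and whether the counting used strand is not given in the sources used here, so reads of such pairs may not be told apart.

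**Figure D1:**
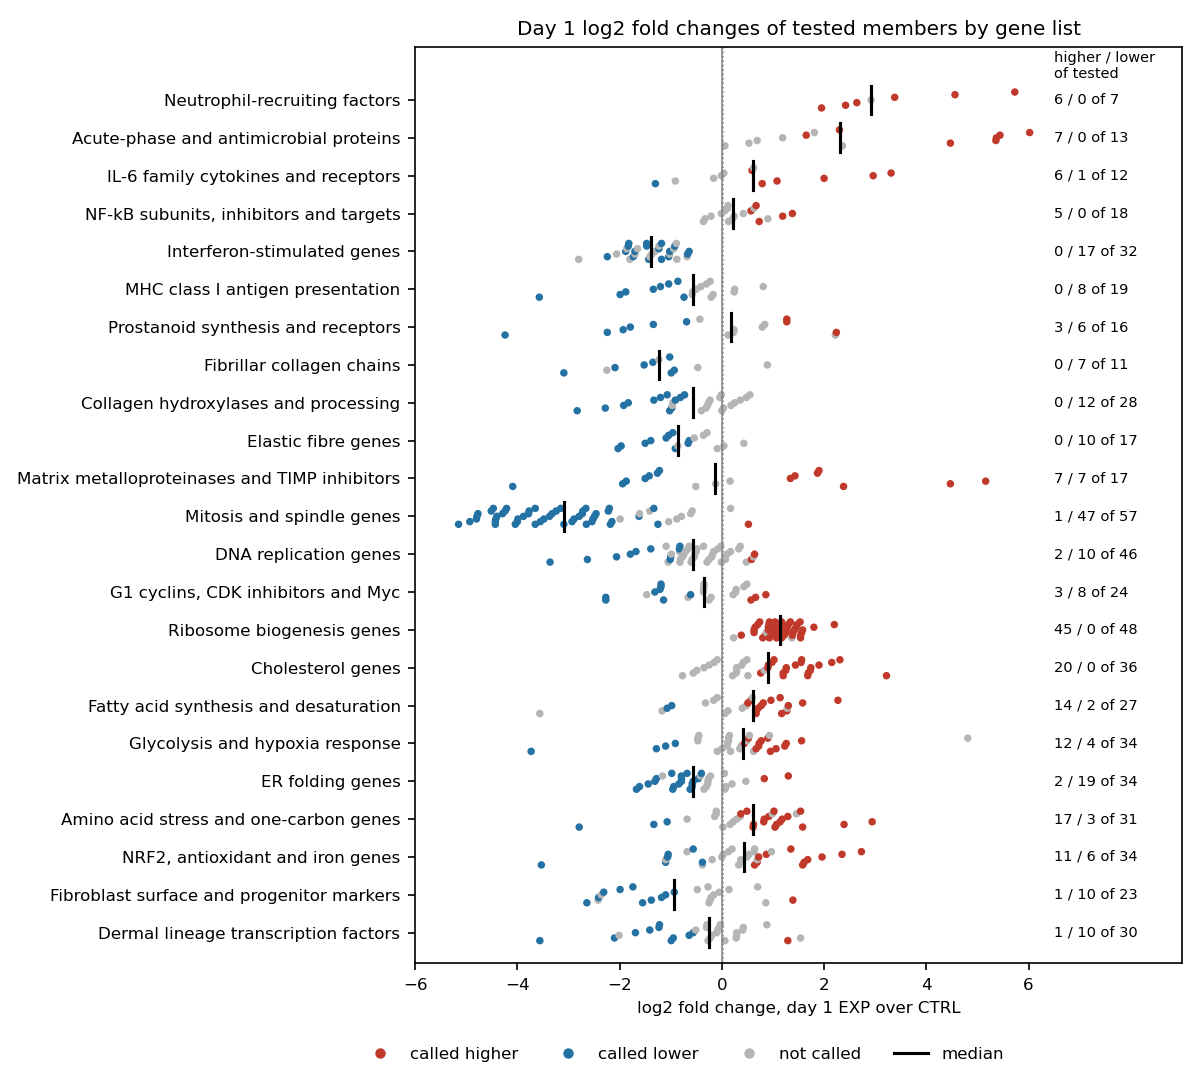
Each point is a tested gene, placed by its day 1 log2 fold change (EXP over CTRL) in the row of its list; red points were called higher, blue lower and grey not called, and black bars are list medians. Mitosis genes lie far to the left (median -3.09, 47 of 57 lower), ribosome biogenesis genes lie to the right as a tight cluster (median 1.13, 45 of 48 higher), and the proteases and their inhibitors split to both sides (7 higher and 7 lower of 17).

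The largest rises were in secreted inflammatory proteins. Among genes that passed the test, averaged 5 CPM or more over the 9 libraries and did not overlap between groups, the 10 largest rises were Tnfsf11, Saa2, Csf3, Lcn2, Saa1, Mmp13, Wfdc17, Cxcl5, Saa3 and the predicted gene AC154707.1, with log2 fold changes from 4.24 to 6.16. The 10 largest falls were Rassf4, Igfbp2, Lrrc17, Tbxa2r, H2-T24, Cybrd1, Angptl1, Spon2, Tril and Ppp1r14a, from -3.40 to -4.45. This group mixes a Ras-binding adaptor (Rassf4), a ferric reductase (Cybrd1), an angiopoietin-like secreted protein (Angptl1), an accessory protein of Toll-like receptor 4 (Tril) and an inhibitor of myosin phosphatase (Ppp1r14a). Of the 10 genes with the smallest p, 8 fell (Lrrc17, P4ha2, Lpin3, Nicn1, Trp53i13, B3gnt9, Chst12 and Gm21451) and 2 rose (Gm9797 and Cpne8). Saa1 and Saa2 are near-identical copies, and the division of reads between them is uncertain.

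Neutrophil-recruiting factors were among the groups that rose most: 6 of 7 tested members rose and none fell, with a median log2 fold change of 2.92. Csf3 encodes G-CSF, the cytokine that drives neutrophil production and release. It measured 4.04, 0.635, 4.61 and 1.72 CPM in CTRL and 142, 362, 144, 27.8 and 58.1 CPM in EXP (log2 fold change 5.73 ± 0.93, adjusted p = 0.000205). The lowest EXP library was still well above the highest CTRL library, but the EXP libraries differed widely among themselves. The chemokine Cxcl5, a ligand of the neutrophil receptor CXCR2, stood at 7.25, 3.77, 23.6 and 15.5 CPM in CTRL and at 286, 437, 395, 268 and 92.5 CPM in EXP (4.56 ± 0.92, adjusted p = 0.00122). Its relative Cxcl1 was already abundant in CTRL at 820, 697, 1642 and 687 CPM and reached 3413, 5752, 4148, 2796 and 2461 CPM in EXP (1.95 ± 0.35, adjusted p = 0.00043). CTRL 3 stood apart from the other CTRL libraries for Cxcl1, yet remained below every EXP library. The related Cxcl2 rose as well (2.64).

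The promoters shown belong to the genes with the smallest p among those of the lists named here that hold the NF-kB motif. No search for shared sequence among the risers was made. The NF-kB motif, GGGA and TTCC with 2 free bases between them, searched on both strands in the 250 bases before the start in RefSeq (GRCm38.p6), was in 3 of the 6 promoters of neutrophil-recruiting factors in the table (Cxcl1, Cxcl2 and Cxcl3, each of which rose) against 1.21% of 32851 promoters. It was in 0 of 11 promoters of acute-phase genes and in 2 of 13 of the NF-kB subunits, inhibitors and targets (Nfkb2 and Nfkbia). Cxcl3, Nfkb2 and, below, Hmgcs1 and Prc1 are named for their promoters and were chosen after their values were seen. The sequences below run 5′ to 3′ up to the base before the start, with the motif in capitals; in both, matches on the 2 strands overlap by all but 1 base. A match is a description of the letters and not a measured binding site. Cxcl1 and Cxcl2 are related genes that hold the same letters at the match, and whether these matches are independent was not tested. Here and below, the count for a list is of genes with a match in any of their promoters. The share of all promoters is per promoter, so the units differ.
Cxcl1 promoter, chr5:90890995-90891244, plus strand: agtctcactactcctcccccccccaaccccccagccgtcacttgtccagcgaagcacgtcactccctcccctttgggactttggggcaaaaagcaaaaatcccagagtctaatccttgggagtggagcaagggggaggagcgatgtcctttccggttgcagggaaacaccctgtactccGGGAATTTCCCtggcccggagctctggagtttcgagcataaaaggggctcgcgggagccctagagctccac
Cxcl2 promoter, chr5:90903649-90903898, plus strand: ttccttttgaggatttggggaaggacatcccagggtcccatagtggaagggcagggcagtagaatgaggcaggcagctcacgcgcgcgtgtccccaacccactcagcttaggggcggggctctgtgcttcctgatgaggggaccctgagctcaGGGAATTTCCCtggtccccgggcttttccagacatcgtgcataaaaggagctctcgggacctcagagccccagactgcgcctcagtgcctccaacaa

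Acute-phase and antimicrobial proteins rose in 7 of 13 tested members with none lower (median 2.30). Saa3, a serum amyloid made outside the liver, measured 113, 91.6, 196 and 165 CPM in CTRL and 2069, 2375, 8837, 1296 and 1111 CPM in EXP (4.47 ± 0.95, adjusted p = 0.00181). EXP 3 was far above the other EXP libraries, and all 5 were above CTRL. Lcn2, an iron-trapping antibacterial protein, went from 4.37, 2.33, 2.36 and 2.22 CPM to 56.7, 189, 282, 32.8 and 24.1 CPM (5.37 ± 1.03, adjusted p = 0.000821). The EXP 4 and EXP 5 libraries had the lowest values for Csf3, Saa3 and Lcn2 alike.

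Within the IL-6 family, which signals through the shared receptor gp130, 6 of 12 tested members rose and 1 fell. Lif, a cytokine of this family, measured 20.2, 19.9, 22 and 14.9 CPM in CTRL and 200, 202, 195, 111 and 246 CPM in EXP (3.31 ± 0.33, adjusted p = 3.92e-06). Both groups were tight for Lif and lay far apart. Il11 (2.96), Clcf1 (2.00) and the LIF receptor Lifr (1.08) also rose, while Il6 itself had a log2 fold change of 0.62 that missed the threshold (adjusted p = 0.121). The faller was Socs3, a feedback inhibitor of this pathway, with 1596, 958, 996 and 957 CPM in CTRL and 590, 291, 380, 532 and 493 CPM in EXP (-1.30 ± 0.26, adjusted p = 0.000943).

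Of 12 tested genes of IL-1, IL-33 and type 2 signalling, 4 rose and none fell. Il33, a nuclear alarmin released by damaged stromal cells, stood at 14.3, 22.3, 46.5 and 27.3 CPM in CTRL and at 308, 1377, 371, 236 and 245 CPM in EXP (4.20 ± 0.58, adjusted p = 5.20e-05). EXP 2 was the high library. The IL-1 receptor Il1r1 (1.32), the IL-13 receptor chain Il13ra1 (0.92) and the IL-33 receptor chain Il1rl1 (1.60) were the other risers, and Tslp did not pass (1.08, adjusted p = 0.239). The groups overlapped for Il1rl1, and its call ended without CTRL 1, CTRL 2, CTRL 3, CTRL 4, EXP 1 or EXP 4 (adjusted p up to 0.105). Of the 18 NF-kB subunits, inhibitors and targets, 5 rose and none fell, with a median of 0.22. Nfkb1, which encodes the p105 precursor of the p50 subunit, rose from 88.2, 52.6, 72.9 and 70.8 CPM to 175, 148, 294, 128 and 178 CPM (1.38 ± 0.26, adjusted p = 0.000536), whereas the inhibitor Nfkbia did not pass (0.21, adjusted p = 0.376). Without CTRL 4, 3 of the 18 genes were called higher.

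Of 11 tested monocyte-attracting CC chemokines and macrophage growth factors, 1 rose and 3 fell (9.09% and 27.3%, against 13.9% and 14.7% of all genes). The riser was Ccl2 (1.02), and the fallers were the growth factor Il34 (-1.94), Ccl5 (-2.41) and Ccl8 (-1.07). Summed over the list, a sum that abundant genes dominate, levels were nonetheless higher in EXP. They were 2260 to 3220 CPM in CTRL and 3870 to 5780 CPM in EXP, scaled by library totals. The call of Ccl2 held only without CTRL 3 or EXP 4 when libraries were left out in turn (adjusted p up to 0.118), and that of Ccl8 only without CTRL 2, EXP 4 or EXP 5 (adjusted p up to 0.0722). The interferon-type chemokine Cxcl10 also fell (-1.22), though not without CTRL 3 or EXP 1 (adjusted p up to 0.0573). Complement genes gave no rises and 2 falls in 17 tested (11.8%, below the 14.7% of all genes), one of them the complement inhibitor Cd55 (-1.99).

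Interferon-stimulated genes, which cells switch on when interferon binds its receptors, were lower in EXP: 17 of 32 tested members fell, none rose, and the median log2 fold change was -1.39. Gbp7, an interferon-induced guanylate-binding protein, measured 57.4, 53.5, 63.2 and 38.8 CPM in CTRL and 10.8, 13.8, 11.5, 25.4 and 18.6 CPM in EXP (-1.73 ± 0.26, adjusted p = 8.91e-05). The groups did not overlap, and EXP 4 and EXP 5 were the EXP libraries nearest to CTRL. Other fallers were Ifi35 (-1.04) and the virus-tethering protein Bst2 (-1.43), whereas the early response genes Ifit1 (-1.37, adjusted p = 0.201) and Isg15 (-0.88, adjusted p = 0.226) missed the threshold. The depth of the fall varied between EXP libraries. As the mean log2 CPM of the list relative to the CTRL mean, EXP 1, EXP 2 and EXP 3 lay at -2.22, -2.05 and -2.84, but EXP 4 and EXP 5 lay at -0.48 and -0.84, beside -0.67 in CTRL 4. The count of fallers was accordingly unstable: it was 7 without CTRL 3, 10 without EXP 1 or EXP 3 and 11 without EXP 2, and 10 when libraries were scaled by their totals.

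Genes of class I antigen presentation fell in 8 of 19 tested members with none higher. Psmb9, an immunoproteasome subunit, went from 21.2, 18.6, 21.2 and 28.5 CPM to 2.69, 8.96, 5.44, 6.78 and 6.49 CPM (-1.88 ± 0.27, adjusted p = 5.14e-05). The peptide transporter genes Tap1 (-1.34) and Tap2 (-1.04) fell with it, and the nonclassical class I gene H2-T24 had the largest fall (-3.57). The class I light chain B2m had -0.58 and did not pass (adjusted p = 0.141). For Psmb9, as for Gbp7 of the interferon list, the groups did not overlap. As mean log2 CPM relative to the CTRL mean, the class I list lay at -1.19 to -0.41 in EXP. It lay at -0.09 to 0.05 in CTRL, without the overlap seen for the mean of the interferon list.

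Prostanoid genes moved in both directions, with 3 of 16 higher (18.8%, against 13.9% of all genes) and 6 lower (37.5%, against 14.7%). Ptgs2 encodes cyclooxygenase-2, the inducible enzyme that makes the prostaglandin precursor. It measured 158, 386, 274 and 226 CPM in CTRL and 1587, 852, 771, 1123 and 1818 CPM in EXP (2.24 ± 0.41, adjusted p = 0.000458). The phospholipase Pla2g4a, which frees its substrate, rose by a smaller amount (1.27), and Hpgd, which degrades prostaglandins, fell (-2.24). Receptors went separate ways: the prostacyclin receptor Ptgir rose (1.27), while those for prostaglandin F (Ptgfr, -1.79) and prostaglandin E (Ptger3, -1.93) fell. The thromboxane receptor Tbxa2r fell furthest, from 10.3, 7.67, 12.7 and 14.5 CPM to 0.419, 0.161, 0.871, 0.382 and 1.13 CPM (-4.24 ± 0.46, adjusted p = 5.23e-06).

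The RANKL system, best known from bone, where the ligand drives osteoclast formation and osteoprotegerin traps it, had 3 rises and 1 fall among 4 tested members. The ligand gene Tnfsf11 measured 0.494, 0.0847, 0.358 and 0.191 CPM in CTRL and 20.7, 27.6, 32.5, 11 and 11.1 CPM in EXP (6.16 ± 0.76, adjusted p = 2.01e-05), the largest rise by the rule above. CTRL levels were near the limit that 3 counts set in these libraries, 0.0955 to 0.127 CPM. The decoy receptor Tnfrsf11b rose too (2.41), as did the signalling adaptor Traf6 (0.73), whose groups overlapped and whose call ended without CTRL 1, CTRL 3, CTRL 4 or EXP 1 (adjusted p up to 0.0752). Lrrc17, a secreted leucine-rich repeat protein reported to restrain osteoclast formation, went the other way, from 81.9, 104, 106 and 172 CPM to 3.98, 10.6, 4.36, 4.9 and 4.27 CPM (-4.36 ± 0.35, adjusted p = 1.11e-06). It had the smallest p of all genes tested.

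**Figure D2:**
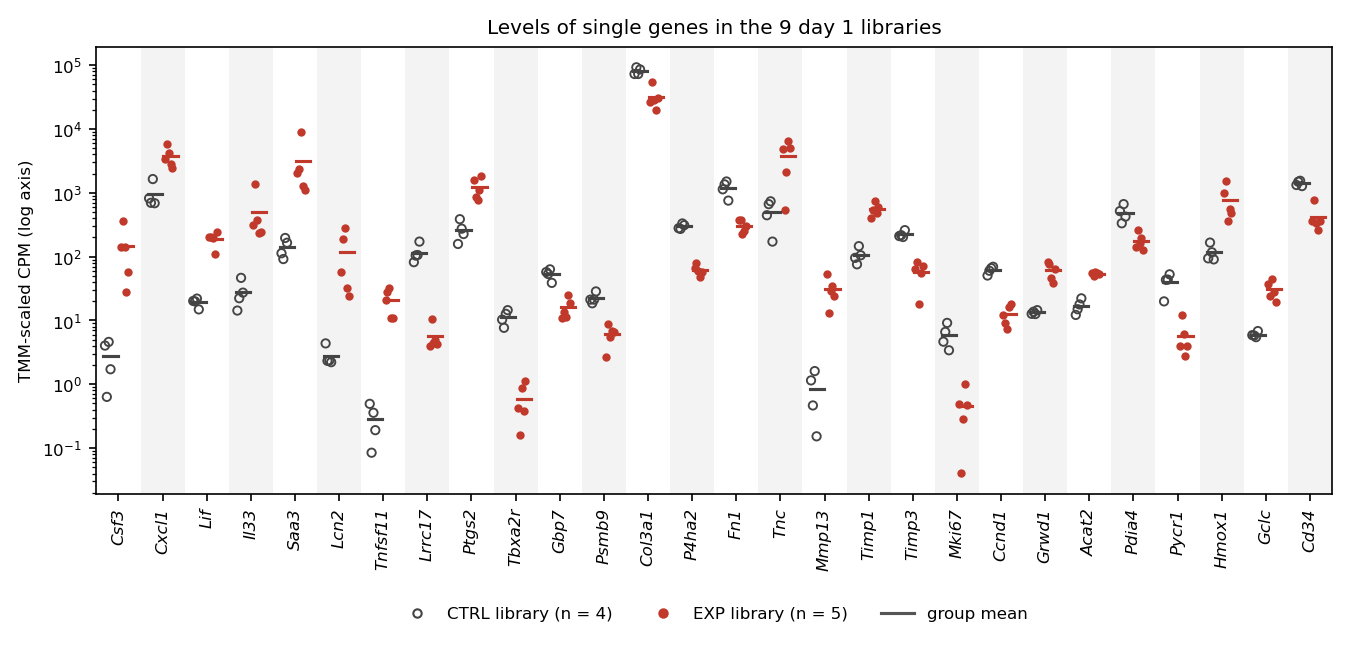
TMM-scaled CPM of 28 genes in each day 1 library on a log axis, with open circles for the 4 CTRL libraries, filled red circles for the 5 EXP libraries and horizontal bars for group means. For every gene drawn other than Tnc, whose EXP 2 value of 529 CPM lies inside the CTRL range of 172 to 736 CPM, the circles of the 2 groups do not overlap. The genes drawn were picked among called genes, so their separation follows from that choice. Over all genes tested, the groups did not overlap in 11.7% (EXP higher) and 12.2% (EXP lower).

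Lists of matrix genes held more falls than rises. Of 11 fibrillar collagen chains 7 fell and none rose, with a median of -1.23. Col3a1, the chain of the thin fibrils of young dermis, measured 72695, 92562, 72680 and 85695 CPM in CTRL and 26762, 53999, 28080, 19779 and 30253 CPM in EXP (-1.35 ± 0.29, adjusted p = 0.00188). EXP 2 was closest to CTRL. Col5a1, which nucleates collagen fibrils, was at 2240, 2266, 2159 and 2500 CPM against 674, 869, 918, 603 and 922 CPM (-1.52 ± 0.21, adjusted p = 3.44e-05), a difference far wider than the spread in either group. Col5a2 (-1.02) fell as well, and so did Col1a1 (-0.99, adjusted p = 0.0319), whose call held only without CTRL 3, EXP 2 or EXP 5 when libraries were left out in turn (adjusted p up to 0.0714). The count of falling chains was 4 without CTRL 1, EXP 3 or EXP 4. Among other interstitial collagens 5 of 16 fell and none rose, among them Col6a1 (-0.93), Col6a2 (-0.94) and Col16a1 (-1.39). Basement membrane genes fell in 7 of 18 with none higher, including the heparan sulfate proteoglycan Hspg2 (-0.77) and the laminin chain Lamb1 (-1.26), but the major chain Col4a1 did not pass (-0.16, adjusted p = 0.57).

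Enzymes that modify and process collagen fell in 12 of 28 tested members, and none rose. P4ha2, a prolyl hydroxylase whose product stabilises the collagen helix, measured 279, 272, 331 and 311 CPM in CTRL and 66, 78.3, 58.7, 47.2 and 58 CPM in EXP (-2.28 ± 0.21, adjusted p = 1.47e-06). The related P4ha1 fell less (-0.91). Adamts14, which removes the propeptide of procollagen, went from 30.7, 15, 51.5 and 20.4 CPM to 5.31, 2.54, 4.28, 2.51 and 5.98 CPM (-2.83 ± 0.36, adjusted p = 2.01e-05). Its groups did not overlap in spite of a wide spread in CTRL. The collagen chaperone Fkbp14 fell (-1.92), but the crosslinking enzyme Lox did not pass (-0.31, adjusted p = 0.373).

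Elastic fibre genes fell in 10 of 17 with none higher, among them fibrillin-1 (Fbn1, -1.04), Mfap2 (-2.03), Fbln5 (-0.96), Emilin2 (-1.97) and elastin (Eln, -1.39), the last not without CTRL 4, EXP 1, EXP 2 or EXP 3 (adjusted p up to 0.136). Small leucine-rich proteoglycans, which coat collagen fibrils, gave 6 falls and 1 rise in 12. Asporin (Aspn, -1.71), Omd (-2.86) and Ecm2 (-1.45) fell and Prelp rose (0.83, lost without CTRL 1, CTRL 3, CTRL 4, EXP 1 or EXP 5, adjusted p up to 0.0681), while the abundant decorin (Dcn, -0.20) and lumican (Lum, -0.60) did not pass. Matricellular and adhesive glycoproteins gave 7 falls and 2 rises in 18. Fn1, fibronectin, was at 1135, 1355, 1504 and 755 CPM in CTRL and 371, 381, 225, 250 and 307 CPM in EXP (-1.95 ± 0.33, adjusted p = 0.000263). Tenascin-C (Tnc), a glycoprotein laid down in wounds and under tension, moved the other way, from 445, 664, 736 and 172 CPM to 4890, 529, 2124, 6406 and 5123 CPM (2.92 ± 0.85, adjusted p = 0.015). The EXP 2 library did not share in this rise, and the groups overlap there.

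Proteases and their inhibitors were split evenly, 7 of 17 matrix metalloproteinases and TIMPs higher and 7 lower. Mmp13, an interstitial collagenase, rose from 1.15, 0.466, 1.61 and 0.153 CPM to 52.7, 13.2, 29, 34.4 and 23.9 CPM (5.16 ± 0.84, adjusted p = 0.000218). The stromelysin Mmp3 was already high in CTRL, at 1131, 2648, 1665 and 2106 CPM, and reached 8256, 5313, 8991, 5145 and 7483 CPM (1.90 ± 0.29, adjusted p = 9.53e-05). Mmp10 rose as well (1.87), and the falling proteases included Mmp11 (-1.50) and Mmp23 (-1.42). Inhibitors parted: Timp1 went from 95.6, 75.8, 146 and 105 CPM to 396, 546, 738, 488 and 589 CPM (2.38 ± 0.31, adjusted p = 2.13e-05). Timp3, which stays bound to matrix, went from 210, 217, 203 and 260 CPM to 64.5, 81.1, 18.2, 56 and 70.6 CPM (-1.94 ± 0.31, adjusted p = 0.000159), and the membrane-anchored inhibitor Reck fell with it (-1.26). In both cases no EXP library reached the CTRL range. ADAMTS proteases gave 8 falls and 1 rise in 18 (5 falls without CTRL 2 or EXP 3), with Adamts5, an aggrecan-cleaving enzyme, as the riser (0.94). Its call ended without CTRL 2, CTRL 4 or EXP 3 (adjusted p up to 0.0623).

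Hyaluronan genes gave 4 rises and 3 falls in 15 (26.7% and 20%, against 13.9% and 14.7% of all genes). The hyaluronan receptor Cd44 rose from 180, 158, 219 and 175 CPM to 541, 375, 497, 446 and 512 CPM (1.37 ± 0.17, adjusted p = 1.52e-05), and the cell-surface hyaluronidase Cemip2 rose (1.64). The synthases parted. Has2 fell (-1.50), with EXP 2 (63 CPM) inside the CTRL range of 44.1 to 122 CPM. Has1 did not pass (-0.47, adjusted p = 0.163). Has3 rose (3.62, adjusted p = 0.0288) at low levels, 0.254 to 1.5 CPM in EXP. Plasminogen activation and coagulation genes gave 2 rises and no falls in 17 (11.8%, below the 13.9% of all genes), the urokinase receptor Plaur (0.83) and the protease inhibitor Serpine2 (0.69), the latter lost without CTRL 1, CTRL 4 or EXP 2 (adjusted p up to 0.0781).

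Contractile, tension and immediate early genes moved in both directions. In the order of the lists below, the shares called higher were 19%, 4%, 4.17% and 7.69%, against 13.9% of all genes. The shares called lower were 14.3%, 8%, 20.8% and 23.1%, against 14.7%. Of 21 myofibroblast genes 4 rose and 3 fell. Among the risers the calls of the focal adhesion genes Zyx (1.07) and Vcl (0.73) and the actin crosslinker Flna (0.72) were fragile, with groups that overlapped: Zyx was lost without CTRL 2, CTRL 4 or EXP 3, Vcl without CTRL 1, CTRL 2, EXP 1 or EXP 5, and Flna without CTRL 1, CTRL 3 or EXP 5 (adjusted p up to 0.0732, 0.0919 and 0.065). The defining gene Acta2, smooth muscle actin, had a log2 fold change of -0.11 (adjusted p = 0.908). Of 25 YAP and TAZ genes, 1 rose (Tead1, 0.90, lost without CTRL 3 or EXP 3, adjusted p up to 0.0595) and 2 fell, and the targets Ccn1 (-0.42, adjusted p = 0.178) and Ccn2 (0.80, adjusted p = 0.24) did not pass. The fibronectin receptor subunit Itga5 rose (1.15) as the one riser among 24 mechanosensitive channels and integrins, where 5 fell, and the channel Piezo1 did not pass (1.27, adjusted p = 0.101). Immediate early genes gave 6 falls and 2 rises in 26, with Jun (-0.89) and Atf3 (-1.14) lower and Ier3 (1.52) higher. Fos (-0.67) was called lower too, but kept that call only without CTRL 2 or EXP 4 (adjusted p up to 0.161). Without CTRL 3 or EXP 3, and likewise when scaled by library totals, fewer of them passed (3, 3 and 2 falls).

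Genes of mitosis and the spindle fell in 47 of 57 tested members, against 14.7% of all genes, with a median log2 fold change of -3.09. The 1 riser was Bub3 (0.52), a spindle checkpoint protein. Mki67, a marker of cycling cells, was at 4.65, 6.61, 9.16 and 3.41 CPM in CTRL and at 0.489, 0.0404, 0.29, 1.02 and 0.474 CPM in EXP (-3.65 ± 0.61, adjusted p = 0.000251). Ccna2, cyclin A2, went from 5.81, 6.82, 15.1 and 4.52 CPM to 0.419, 0.283, 0.69, 0.477 and 0 CPM (-4.40 ± 0.63, adjusted p = 5.73e-05). Levels were low in both groups, and Mki67 in EXP 2 and Ccna2 in EXP 5 were under the level of 3 counts. Stmn1, a tubulin-binding protein of dividing cells, was at 4.32, 8.68, 9.87 and 6.55 CPM against 0.733, 1.41, 0.653, 1.56 and 1.17 CPM (-2.73 ± 0.37, adjusted p = 3.54e-05). CTRL 3 had the highest mitotic level, 1.02 log2 units above the CTRL mean of the list, and 39 genes were called lower without it. With the 5 libraries of the first side of the split alone, 31 were. In bulk libraries fewer cycling cells and less RNA per cycling cell cannot be told apart.

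The motif TTTGAA, the core of the cell cycle homology region through which mitotic genes are repressed in resting cells, was on either strand in promoters of 15 of 47 genes of the list against 16% of all promoters. Of these 15 genes 13 fell, a share near that of the whole list (47 of 57). In DNA replication genes it was in 5 of 37. The promoters of Prc1 (-4.21), a spindle midzone protein, and Mki67 are shown because they have the smallest p among the fallers with this motif, which is in capitals.
Prc1 promoter, chr7:80294226-80294475, plus strand: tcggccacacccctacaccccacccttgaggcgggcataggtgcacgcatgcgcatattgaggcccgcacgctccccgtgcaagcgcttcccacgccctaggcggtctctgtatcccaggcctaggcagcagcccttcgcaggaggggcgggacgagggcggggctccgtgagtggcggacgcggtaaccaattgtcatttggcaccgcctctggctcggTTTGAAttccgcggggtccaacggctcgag
Mki67 promoter, chr7:135716380-135716629, minus strand: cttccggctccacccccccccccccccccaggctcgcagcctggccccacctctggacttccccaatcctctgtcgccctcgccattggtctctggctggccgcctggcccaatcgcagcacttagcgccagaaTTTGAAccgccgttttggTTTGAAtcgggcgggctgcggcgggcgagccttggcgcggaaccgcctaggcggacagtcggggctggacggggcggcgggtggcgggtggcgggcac
The match lies 30 bases before the start in Prc1, and 116 and 98 bases before it in Mki67.

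Earlier steps of the cycle moved less. Of 46 DNA replication genes 10 fell (21.7%, against 14.7% of all genes) and 2 rose (4.35%, against 13.9%), with a median of -0.56. The fall was 4 genes when scaled by library totals. The transcription factor E2f1 (-2.06) and the ribonucleotide reductase subunit Rrm2 (-1.79) fell, whereas Pcna, the polymerase clamp, rose (0.64) and the helicase subunit Mcm2 did not pass (-0.54, adjusted p = 0.468). Among 24 genes of the G1 phase 8 fell and 3 rose. Ccnd1, cyclin D1, which couples growth signals to the cycle, dropped from 50.6, 60.1, 66 and 69.4 CPM to 12.2, 9.12, 7.48, 16.5 and 18.3 CPM (-2.27 ± 0.32, adjusted p = 4.46e-05). The groups were widely apart for Ccnd1. The inhibitors moved both ways, with Cdkn1a (p21) higher (0.57, lost without CTRL 2 or CTRL 4, adjusted p up to 0.0607) and Cdkn2c (-2.27) and Rbl2 (-1.14) lower, and Myc did not pass (-0.36, adjusted p = 0.106).

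Ribosome biogenesis rose at the same time. Of 48 nucleolar genes 45 rose (93.8%, against 13.9% of all genes) and none fell, with log2 fold changes from 0.23 to 2.20. Grwd1, a ribosome assembly factor, went from 12.7, 13.7, 12.6 and 14.5 CPM to 83.3, 75.6, 46.9, 38.3 and 63 CPM (2.20 ± 0.23, adjusted p = 4.57e-06). Rrp9, which binds the U3 small nucleolar RNA, went from 13.6, 14.3, 11.7 and 17.7 CPM to 59, 60.9, 43.3, 34.6 and 51.5 CPM (1.80 ± 0.19, adjusted p = 3.93e-06). CTRL libraries differed by little for both genes, and every EXP library was above the highest CTRL library. The helicase Ddx21 (1.26), Nhp2 (1.54), Nop56 (1.17) and the RNA methyltransferase fibrillarin (Fbl, 1.07) rose too. The list gave 42 to 47 rises under every setting and left-out library tried. Mitochondrial chaperones Hspa9 (0.82) and Hspd1 (0.67) were among 4 rises and 3 falls in 26 heat shock proteins. Those shares, 15.4% and 11.5%, were close to or below the 13.9% and 14.7% of all genes.

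Lipid synthesis rose. Of 36 genes of cholesterol synthesis, uptake and efflux 20 rose and none fell, with a median of 0.90. Acat2, which makes acetoacetyl-CoA at the head of the pathway, went from 12.2, 15, 17.8 and 22.2 CPM to 55.8, 48.9, 58.1, 55.1 and 52.6 CPM (1.68 ± 0.21, adjusted p = 1.4e-05), and reads of its close copy Acat3 (2.31) may be divided with it. EXP libraries were nearly equal for Acat2. The sterol demethylase Cyp51 (1.55) and the lipoprotein receptor Scarb1 (1.26) rose. The sterol response motif TCACNCCAC was found in 1 of 24 promoters of the list, that of Hmgcs1 (1.20), an early synthase of the pathway, against 1.05% of all promoters, and that promoter is shown with the motif in capitals.
Hmgcs1 promoter, chr13:119690101-119690350, plus strand: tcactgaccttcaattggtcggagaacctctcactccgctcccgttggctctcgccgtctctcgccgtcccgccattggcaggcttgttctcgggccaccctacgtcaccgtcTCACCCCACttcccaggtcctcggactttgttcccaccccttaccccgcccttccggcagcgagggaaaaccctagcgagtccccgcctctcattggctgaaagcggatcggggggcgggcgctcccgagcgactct
Fatty acid genes rose in 14 of 27 with 2 falls (8 rises without CTRL 1). Fasn, fatty acid synthase, rose (0.77), as did Acsl4 (1.17) and the elongation enzyme Hsd17b12 (1.14), while the desaturase Scd1 did not pass (0.40, adjusted p = 0.517).

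Glycolysis and hypoxia genes gave 12 rises and 4 falls in 34. Slc2a1, the glucose transporter GLUT1, went from 41.6, 32.5, 42.1 and 48.4 CPM to 132, 67.4, 89, 102 and 105 CPM (1.26 ± 0.19, adjusted p = 6.27e-05). Ldha, which turns pyruvate to lactate, went from 440, 662, 527 and 581 CPM to 1021, 1284, 1168, 1051 and 1253 CPM (1.06 ± 0.14, adjusted p = 3.08e-05). Both groups were compact for Ldha. Hif1a rose (0.95), but the hypoxia-responsive Pdk1 fell (-1.28) and Vegfa did not pass (1.14, adjusted p = 0.0883). The hypoxia core ACGTG was in 19 of 33 promoters of the list against 16.6% of all promoters, and 9 of those 19 genes rose and 2 fell.

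Of 13 messenger RNAs encoded in the mitochondrion 10 rose and none fell, mt-Nd1 by 1.04, although mt-Co1 had -0.09 (adjusted p = 0.867), and the count was 5 or 6 without CTRL 1, CTRL 2, CTRL 3 or EXP 3. Nuclear-encoded respiratory chain subunits rose in 10 of 68 with none lower (14.7%, close to the 13.9% of all genes), a count that ran from 5 to 20 as libraries were left out.

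Folding genes of the endoplasmic reticulum were lower in EXP than in CTRL: 19 of 34 fell and 2 rose, with a median of -0.57. Pdia4, a disulfide isomerase, was at 517, 333, 665 and 424 CPM in CTRL and 144, 263, 163, 195 and 128 CPM in EXP (-1.44 ± 0.24, adjusted p = 0.000173). Creld2, a chaperone induced by misfolded protein, was at 264, 177, 255 and 258 CPM against 80.8, 125, 94.2, 109 and 71.3 CPM (-1.31 ± 0.20, adjusted p = 9e-05). For both genes EXP 2 had the highest EXP value and stayed below CTRL. Pdia5 (-1.61), the cargo adaptor Sec24d (-0.98) and the master chaperone Hspa5 (-0.58, lost without CTRL 1 or EXP 3, adjusted p up to 0.0541) fell, the stress sensor Ern1 (0.83) and the pseudokinase Trib3 (1.30) rose, and Ddit3 did not pass (0.05, adjusted p = 0.864). The ER stress element, CCAAT and CCACG with 9 free bases between them, was on either strand in 8 of 29 promoters of the list, against 0.113% of all promoters, and 6 of the 8 genes fell while none rose. The promoter of Creld2, chosen for display after the values were seen, holds it on the reverse strand, so the capitals read as the complement.
Creld2 promoter, chr15:88819396-88819645, plus strand: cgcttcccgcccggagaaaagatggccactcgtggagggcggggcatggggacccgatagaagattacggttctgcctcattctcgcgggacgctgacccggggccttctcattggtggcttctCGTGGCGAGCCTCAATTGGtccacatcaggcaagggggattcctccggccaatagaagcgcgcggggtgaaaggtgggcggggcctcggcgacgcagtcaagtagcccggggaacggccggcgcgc

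Amino acid stress, serine and one-carbon genes rose in 17 of 31 tested members, with 3 falls. The enzymes Asns (1.04), Psat1 (1.54) and Psph (1.18) rose. Atf4, the transcription factor of this response, rose by 0.49, a call that ended without CTRL 1, CTRL 2, CTRL 3 or EXP 3 (adjusted p up to 0.0993). Aldh1l1, a folate enzyme, went from 2.72, 2.12, 2.83 and 3.14 CPM to 22.7, 17.5, 26.2, 16 and 21.6 CPM (2.94 ± 0.33, adjusted p = 6.2e-06). The fallers included both enzymes of the list that make proline, the amino acid most abundant in collagen after glycine. Pycr1 went from 19.9, 43.3, 43.7 and 52.8 CPM to 3.95, 12, 6.17, 2.8 and 4.01 CPM (-2.79 ± 0.37, adjusted p = 3.06e-05), and Aldh18a1 fell (-1.33). The amino acid response motif TGATGNAAN was in 7 of 27 promoters against 3.44% of all, Pycr1 among them, and 3 of the 7 rose and 1 fell.

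NRF2, antioxidant and iron genes gave 11 rises and 6 falls in 34 (32.4% and 17.6%, against 13.9% and 14.7% of all genes). Hmox1, haem oxygenase, rose from 94, 166, 117 and 90.5 CPM to 979, 1517, 358, 557 and 477 CPM (2.73 ± 0.38, adjusted p = 4.67e-05). Gclc, the limiting enzyme of glutathione synthesis, rose from 5.89, 5.8, 5.47 and 6.82 CPM to 37.9, 24.1, 44.1, 27.5 and 19.6 CPM (2.35 ± 0.26, adjusted p = 6.2e-06), and Fth1, the ferritin heavy chain that stores iron, from 2999, 2788, 3470 and 2650 CPM to 6821, 9575, 9159, 6348 and 5971 CPM (1.35 ± 0.20, adjusted p = 6.79e-05). All 3 were higher in every EXP library than in any CTRL library. The mitochondrial superoxide dismutase Sod2 rose (1.68), but catalase (Cat, -1.10), Gstm1 (-1.06) and the ferric reductases Cybrd1 (-3.53) and Steap3 (-1.05) fell, and the reference NRF2 target Nqo1 did not pass (0.64, adjusted p = 0.259). Metallothionein Mt2 (1.19) and the zinc importer Slc39a14 (1.58) rose too.

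**Figure D3:**
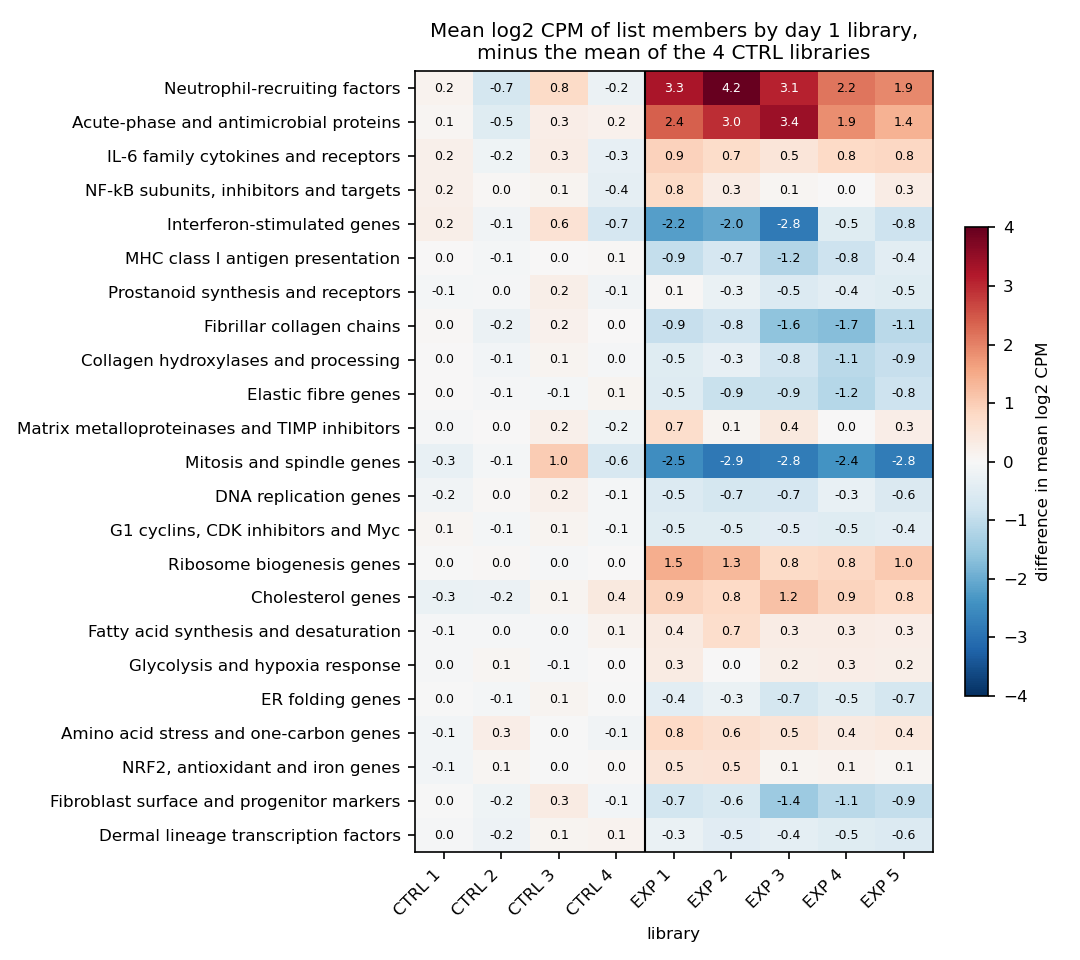
Rows are gene lists and columns the 9 day 1 libraries; each cell is the mean log2 CPM of the list's tested genes minus the mean of the 4 CTRL libraries, on a colour scale from blue (lower) to red (higher). Mitosis genes are low in all 5 EXP libraries (-2.87 to -2.38), whereas interferon-stimulated genes are lowest in EXP 1, EXP 2 and EXP 3 (-2.84 to -2.05) and near CTRL 4 in EXP 4 and EXP 5.

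In the TGF-beta and BMP pathway 7 of 47 tested genes rose (14.9%, or 4 genes without CTRL 4) and 5 fell (10.6%), shares close to or below the 13.9% and 14.7% of all genes. Bmp4, a dermal BMP ligand, went from 67.7, 96.3, 55.5 and 78.4 CPM to 21.6, 10.8, 12.4, 17.5 and 20.3 CPM (-2.17 ± 0.45, adjusted p = 0.0016), and Tgfb3 from 64.8, 68.8, 60.2 and 67 CPM to 27.7, 21.2, 26.5, 29.5 and 30.7 CPM (-1.26 ± 0.17, adjusted p = 2.55e-05). Neither ligand overlapped between groups. The extracellular inhibitor follistatin (Fst, 1.86) and Smad7 (1.06), a feedback inhibitor of the receptors, rose, and the BMP inhibitor Chrd fell (-1.77). Tgfb1 did not pass (0.77, adjusted p = 0.0939).

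Of 17 tested IGF genes 6 fell and 2 rose. Igfbp5, a secreted IGF-binding protein, went from 440, 379, 714 and 650 CPM to 87.7, 88.7, 105, 66.9 and 123 CPM (-2.53 ± 0.30, adjusted p = 1.24e-05). Igf1 (-1.38), Igfbp2 (-4.44) and the receptor substrate Irs1 (-1.55) fell. Among fibroblast and epidermal growth factors 4 of 24 genes rose (16.7%, close to the 13.9% of all genes) and 1 fell (4.17%, below the 14.7% of all genes). Fgf23, a hormone of bone that lowers blood phosphate, went from 11.2, 1.4, 2.15 and 4.9 CPM to 57.9, 169, 25, 14 and 14.1 CPM (3.51 ± 0.88, adjusted p = 0.00569). The lowest EXP libraries were only just above CTRL 1 for Fgf23. The epidermal growth factor ligand Ereg rose (3.02), whereas Fgf7 (0.09, adjusted p = 0.875) and Fgf10 (-0.70, adjusted p = 0.12), which act on keratinocytes, did not pass. Wnt genes gave 7 falls (16.3%, close to the 14.7% of all genes) and 1 rise in 43, among the falls the ligand Wnt2 (-2.53) and the receptor Fzd2 (-1.45), and the target Axin2 did not pass (-0.86, adjusted p = 0.145). That count was 3 or 4 without CTRL 1, CTRL 3, EXP 3, EXP 4 or EXP 5.

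Surface markers of fibroblast progenitors fell in 10 of 23 with 1 rise (Cd200, 1.39). Dpp4 (CD26), a marker of interstitial progenitors, went from 162, 303, 210 and 150 CPM to 53.4, 61.6, 24.1, 30.4 and 39 CPM (-2.31 ± 0.26, adjusted p = 6.2e-06), and Cd248 (endosialin) from 609, 248, 781 and 439 CPM to 78.8, 138, 63.8, 51.6 and 83.3 CPM (-2.64 ± 0.35, adjusted p = 2.68e-05). No EXP library reached the CTRL range of either gene. The genes of the 2 proteins used to collect the cells moved in opposite directions. Cd34 was at 1325, 1491, 1544 and 1274 CPM in CTRL and at 366, 778, 336, 262 and 364 CPM in EXP (-1.74 ± 0.34, adjusted p = 0.00081). Pdgfra was at 369, 321, 413 and 319 CPM in CTRL and at 692, 465, 702, 690 and 643 CPM in EXP (0.84 ± 0.25, adjusted p = 0.0154). EXP 2 was the library nearest to CTRL for both genes. All cells had passed a gate on both proteins, and how the gate acts on the fibroblast mixture in each group was not tested.

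Dermal lineage transcription factors fell in 10 of 30, among them Creb3l1 (-1.41), which drives secretory and collagen genes, Tcf4 (-1.22), Ebf2 (-2.10) and Meox2 (-1.23), and Runx1 rose (1.29), while Twist1 (0.29, adjusted p = 0.499) and Twist2 (0.42, adjusted p = 0.352) did not pass. Hox genes, which record position along the body, fell in 5 of 13 tested with none higher, for example Hoxc5 (-1.37), or in 3 without CTRL 2, CTRL 3 or EXP 1. Imprinted growth genes fell in 7 of 20 with none higher (4 without CTRL 1), among them Peg3 (-1.64) and Sgce (-1.12). In the adipogenic list 2 of 20 rose and 2 fell (10% each, below the 13.9% and 14.7% of all genes). The fallers were the preadipocyte factor Zfp423 (-2.05) and the lipase Lpl (-1.98).

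Markers of cells that the sort should remove differed in level: Ptprc and Cdh5 were near 0, while the endothelial and myeloid lists summed to far more. Whether fibroblasts express members of those lists was not tested. The sums here, and the levels of Ptprc and Cdh5, are scaled by library totals without TMM. TMM factors were 0.922 to 1.04 in CTRL and 1.02 to 1.25 in EXP, so TMM scaling would lower most EXP sums relative to CTRL. The leukocyte gene Ptprc (CD45) stood at 0.039 CPM in CTRL 2 and 0.123 CPM in EXP 2 and at 0 in the other libraries, and Cdh5 of endothelium did not exceed 0.164 CPM. Summed levels overlapped between groups for keratinocyte markers (9.99 to 70.9 CPM in CTRL, 4.77 to 38.8 CPM in EXP, 1 of 17 tested higher and 1 lower), endothelial markers (130 to 168 and 116 to 232 CPM, 0 of 13 called) and myeloid markers (67.7 to 114 and 71 to 114 CPM, 2 of 11 higher and 1 lower). Keratinocyte genes were uneven between libraries, with Krt14 at 7.66 CPM in CTRL 4 and 9.16 CPM in EXP 2. Neutrophil markers summed to 1.95 to 5.6 CPM in CTRL and 6.58 to 16.4 CPM in EXP without overlap, 2 of 4 tested members were higher and 4 members were at 0 in all 9 libraries (Cxcr2, Retnlg, Clec4d and Stfa2). S100a8 was at 0 in every CTRL library and at 0.146 to 0.69 CPM in EXP. Lymphocyte and mast cell markers summed to 0.859 to 3.7 CPM in CTRL and 3.06 to 10.5 CPM in EXP with 0 of 2 tested called, and the part of such cells in the chemokine and acute-phase results was not tested. Of the remaining lists, pericyte and smooth muscle markers summed to 593 to 864 and 374 to 957 CPM (3 of 12 lower), Schwann cell and melanocyte markers to 64.7 to 79.2 and 38.2 to 67.5 CPM (3 of 10 lower), muscle markers to 1.41 to 2.78 and 1.76 to 2.46 CPM (0 of 4 called) and erythroid and platelet markers to 10.6 to 19.9 and 19.4 to 24.8 CPM (0 of 6 called).

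The labels set later days beside day 1, and the difference of effects was tested directly. At day 2 the same test called 2359 genes (13.4%), 1356 higher (7.72%) and 1003 lower (5.71%), and at day 4 it called 3943 (22.5%), 2248 higher (12.8%) and 1695 lower (9.66%). The day 1 effect differed from that of day 2 in 520 genes (2.96%), and from that of day 4 in 2341 genes (13.3%). Day 1 and day 2 calls were opposite in 85 genes (0.484%), and day 1 and day 4 calls in 252 genes (1.44%). Each of these contrasts between days uses the same day 1 libraries.

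The fold changes of mitosis and DNA replication genes reversed. The mitosis list, with 47 falls at day 1, had 30 rises and no falls at day 2 and 53 rises and no falls at day 4, with medians of 2.28 and 2.77. The day 1 effect was lower than that of day 2 in 47 of the 57 genes (against 2.48% of all genes) and lower than that of day 4 in 54 (against 8.16%). Stmn1 moved from -2.73 at day 1 to 1.92 at day 2 and 2.13 at day 4 (adjusted p of the difference from day 1 = 0.000505 and 0.000103). Mki67 moved from -3.65 to 2.62 and 2.77 (adjusted p = 0.00213 and 0.0003). Levels of both genes moved in CTRL as well as in EXP. Mean Mki67 was 5.96, 1.73 and 2.91 CPM in CTRL at days 1, 2 and 4, and 0.462, 10.7 and 19.7 CPM in EXP. Mean Stmn1 was 7.36, 3.36 and 2.8 CPM in CTRL on these days, and 1.11, 12.7 and 12.3 CPM in EXP. Part of their reversal was therefore a lower CTRL level after day 1. The DNA replication list followed, from 10 falls and 2 rises to 24 rises and 1 fall at day 2 and 21 rises and 0 falls at day 4. The G1 list did not reverse, with 1 rise and 5 falls at day 2 and 2 rises and 4 falls at day 4, and Ccnd1 stood at -0.21 and -0.06. Within it Cdkn1a turned the other way, from 0.57 at day 1 to -0.85 and -0.90 (adjusted p = 0.00694 and 0.00177).

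Several other day 1 changes differed from the later ones. Lrrc17 was strongly lower at day 1 and was not called at day 2 (-0.50) or day 4 (0.96), with adjusted p of 0.000752 and 1.43e-05 for the difference. Timp3 likewise fell at day 1 and had 1.10 at day 2 and 0.04 at day 4 (adjusted p = 0.00262 and 0.00994), and the thromboxane receptor Tbxa2r had -1.06 and -1.42 (adjusted p = 0.0125 and 0.00743). Tgfb3 fell at day 1, rose at day 2 (0.81) and fell again at day 4 (-0.78), and the difference from day 2 passed the test (adjusted p = 0.000505) while that from day 4 did not (adjusted p = 0.206). In the ER folding list 19 falls at day 1 stood beside 3 at day 2 and 8 at day 4, and the day 1 effect was lower than the later one in 10 of 34 genes at either day, for example Pdia4 (adjusted p = 0.00606 and 0.00905) and Pdia5 (adjusted p = 0.00224 and 0.000101). Among the risers, Gclc had 0.19 and -0.09 at days 2 and 4 (adjusted p = 0.00584 and 0.000744) and Mt2 had -0.65 at both days (adjusted p = 0.00825 and 0.00285). Lif was close to 0 by day 4 (-0.16, adjusted p = 0.0003), as was Nfkb1 (-0.20, adjusted p = 0.0117), while their differences from day 2 did not pass (adjusted p = 0.0736 and 0.0832). The matrix genes Col5a1 (-0.08 at day 4, adjusted p = 0.0062) and Fn1 (0.95 at day 4, adjusted p = 0.00145) had day 1 effects lower than those of day 4.

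Other groups differed between days in part of their genes. The day 1 effect was lower than that of day 4 in 13 of 28 collagen-processing, 8 of 17 plasminogen and 11 of 20 adipogenic genes (against 8.16% of all genes), and higher in 9 of 18 NF-kB genes (against 5.18%). Ribosome biogenesis genes had 22 rises at day 2 and 19 at day 4, and in 0 of 48 did the day 1 effect differ from that of day 2, but in 13 it was higher than that of day 4. Of the neutrophil-recruiting factors 6 rose at day 2 and 7 at day 4, and 1 of 7 had a day 1 effect below that of day 4. Csf3 stood at 7.32 and 7.45 at the later days (adjusted p of the difference = 0.571 and 0.342) and Tnfsf11 at 7.78 and 4.97 (adjusted p = 0.563 and 0.454). A difference that misses the threshold here does not show equal effects, because the 3 EXP libraries of each later day leave wide errors. Igfbp5 was at -2.53, -2.70 and -2.53 on the 3 days. Of the cholesterol genes 24 rose at day 2 and 20 at day 4, and 4 of 36 had a day 1 effect below that of day 2. The log2 fold change of Aldh1l1 was larger at day 2 (5.78) than at day 1 (adjusted p of the difference = 0.00594).

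**Figure D4:**
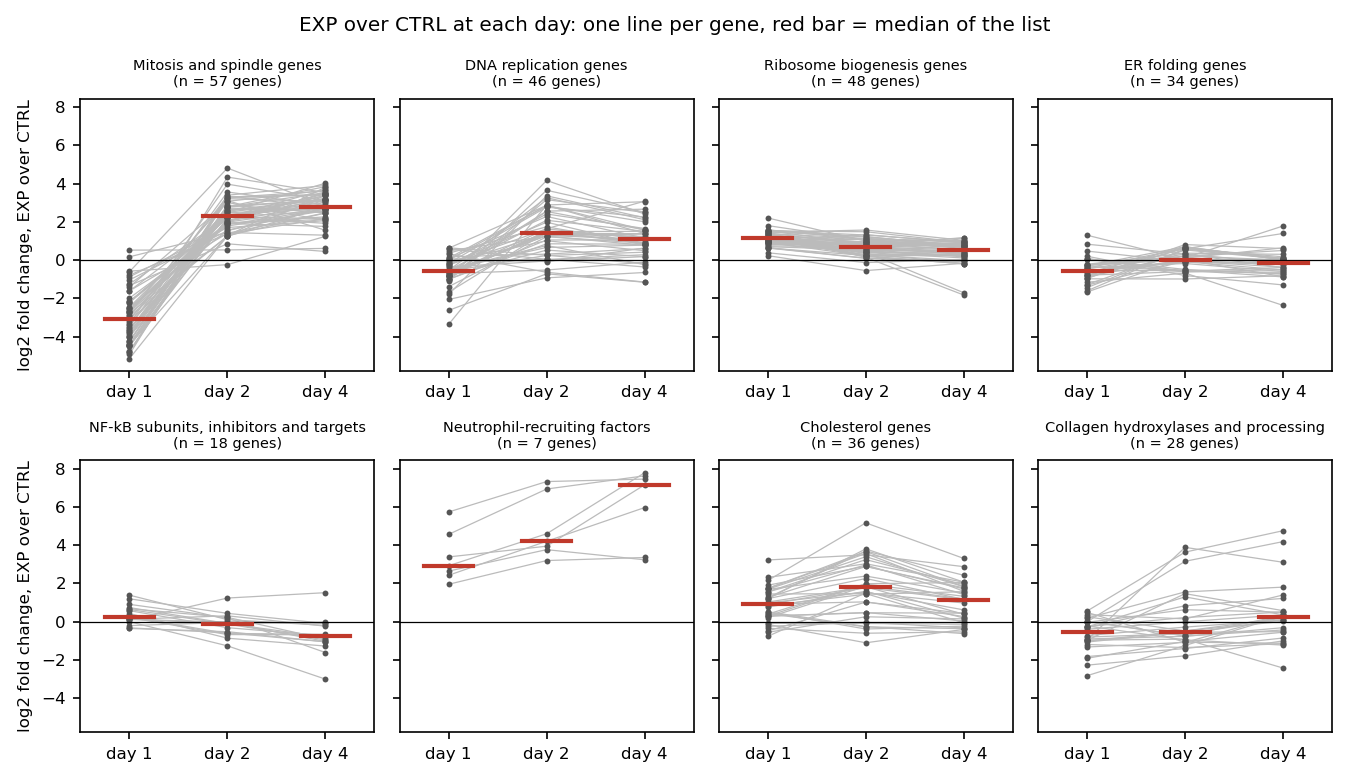
Each grey line joins the log2 fold changes (EXP over CTRL) of 1 gene at day 1, day 2 and day 4, in 8 lists, and red bars are list medians. Mitosis genes cross from below to above 0 between day 1 (median -3.09) and day 2 (2.28), ER folding genes approach 0 after day 1 (-0.57, then 0.03 and -0.16), and the median of the neutrophil-recruiting factors is 2.92, 4.20 and 7.15. A fold change can move between days through CTRL levels as well as EXP levels.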

How the data were processed

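Bulk RNA of sorted mouse skin fibroblasts was measured in 22 libraries, of which the 9 of day 1 are the subject here. The authors deposited 1 table of raw counts per Ensembl gene, 55414 genes by 22 libraries, with no normalization per its whole-number values. Reads were trimmed with Trimmomatic and the build was mm39, per the submitters' processing notes. The aligner, counter, annotation and strand setting are not given in the sources used here. Groups came from the sample titles, and every column matched 1 labelled sample.

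Symbols came from a table of gene names, which matched 52081 of the genes. Genes were kept by edgeR's filterByExpr (minimum count 10), scaled by TMM and fitted over all 22 libraries in 6 groups of day and treatment with robust quasi-likelihood dispersion (edgeR 4.0.16, R 4.3.3). The standard error is the log2 fold change divided by the root of the F statistic. Effects were compared between days as interaction contrasts. P-values are from edgeR's quasi-likelihood F test with Benjamini-Hochberg adjustment over the genes tested, at 0.05. Library totals of 23872965 to 27322561 counts put 3 counts at 0.0955 to 0.127 CPM in day 1 libraries.

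Gene lists for 53 functions and 10 cell types held 1453 entries, of which 1450 matched. The members and lists were chosen with earlier results of these data known, so no list is independent support. Genes were named by rule: the 10 largest rises and falls among called genes with a mean of 5 CPM or more and no overlap, the 10 smallest p, each list's first 2 members with up to 4 called risers and 4 called fallers, the sort markers, and the 5 smallest p of each contrast between days. Alternatives were DESeq2 1.42.0 (its test and its size factors), library totals, no filter, day 1 libraries alone, the replicate block, the library split and each library left out. On simulated counts for the day 1 contrast (200 of 16490 genes changed), the test recovered 32% of 2-fold and 72% of 4-fold changes, and 7 of its 111 calls were false.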

Additional observations from a re-analysis of the deposited data

Results flagged for a closer look

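Single libraries stood apart from the rest of their group for 10 of 110 groups of values tested, where chance gives about 5.5. In CTRL these were Cxcl1 in CTRL 3 (1642 CPM against 687 to 820 CPM in the others), Lcn2 in CTRL 1 (4.37 CPM), Socs3 in CTRL 1 (1596 CPM) and Creld2 in CTRL 2 (177 CPM, the low one). In EXP they were Saa3 in EXP 3 (8837 CPM) and, in EXP 2, Il33 (1377 CPM), Lrrc17 (10.6 CPM), Fgf23 (169 CPM), Cd34 (778 CPM) and Pdgfra (465 CPM, the low one). EXP 2 accounts for 5 of the 6 in EXP. In 6 of these cases (Cxcl1, Lcn2, Creld2, Lrrc17, Cd34 and Pdgfra) the library that stood apart lay toward the other group.

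The effect of the expander at day 1 differed from that at day 2 in 520 genes and from that at day 4 in 2341 genes by the interaction test of edgeR. Those with the smallest p among genes called at day 1 were, against day 2, Spc24 (-3.32 at day 1 and 3.97 at day 2), Gm11223 (-2.60 and 2.13), Stmn1 and Tgfb3, each with an adjusted p of 0.000505, and Cdca8 (-3.09 and 2.47, adjusted p = 0.00063). Against day 4 they were Lrrc17 (adjusted p = 1.43e-05), Pdia5 (-1.61 at day 1 and 1.39 at day 4, adjusted p = 0.000101), Stmn1 (adjusted p = 0.000103), Cdca8 (2.72 at day 4, adjusted p = 0.000111) and Gm21451 (-1.82 and 0.45, adjusted p = 0.000111). Spc24 and Cdca8 encode parts of the machinery that attaches chromosomes to the spindle.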

How the results depend on the processing

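The 5017 day 1 calls became 5038 with DESeq2 size factors, 5130 with library totals, 4061 without a filter, 4593 with day 1 libraries alone and 5667 with DESeq2's test, and no call changed sign in any of these settings. The libraries of 1 side of the split alone (3 CTRL, 2 EXP) gave 2403 calls (1257 higher, 1146 lower), a setting with fewer samples, and a fold threshold in addition gave 2504 (992 higher, 1512 lower). Leaving out 1 library gave 4024 (without CTRL 3) to 4830 (without EXP 2) calls, 1899 to 2452 higher and 2108 to 2511 lower. The contrast with day 2 (520 genes) was less steady: 175 on 1 side of the split, 1067 with DESeq2's test, and 259 (without CTRL 3) to 622 (without EXP 2) with 1 library left out. The contrast with day 4 (2341 genes) gave 1083 on 1 side of the split and 1695 to 2600 with 1 library left out. With the replicate block the calls were 4337 at day 1, 267 against day 2 and 783 against day 4, but the numbers pair the libraries only in name: deviations of same-numbered CTRL and EXP libraries correlated at 0.164, -0.0148, -0.0664 and 0.0968. The cause of these shifts was not tested. On 1 side of the split fewer list members also passed, for example 6 of 34 ER folding genes fell (19 in all libraries) and 1 of 17 elastic fibre genes (10 in all libraries). Of 192 called genes named, 19 lost their call without at least 1 library and 56 on 1 side of the split. At the depth of these libraries, Mki67 in EXP 2 and Ccna2 in EXP 5 lay under the level of 3 counts. Of the genes named, 8 that did not pass the test changed sign in a setting: with library totals Col4a1 (0.011), Acta2 (0.10) and mt-Co1 (0.12), with the split as a covariate Col4a1 (0.021) and Krt14 (0.96), and on 1 side of the split Lox (0.22), Ddit3 (-0.016), Twist1 (-0.12) and Krt14 (3.41). With 1 library left out, Acta2 ran from -0.74 to 0.89, Ddit3 from -0.039 to 0.13, mt-Co1 from -0.14 to 0.0029, Fgf7 from -0.15 to 0.19 and Krt14 from -3.21 to 2.22 on the log2 scale, so none of them has a direction here.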
